A study of Mus musculus with 7 samples.

Results

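Hepatocyte growth factor (HGF), its receptor MET and the plasminogen activator system were followed through 7 genes in muscle stem cells of geriatric and young mice. The genes are Hgf, Met, Hgfac, Plau, Plaur, Plat and Serpine2, out of 36406 gene names on the array, and every array probe that carries one of these names was read. The rule picks probes by gene name and uses no measured value. Each gene had 1 probe, so no second probe checks any of the values below.

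The cells are satellite cells, the resident stem cells of skeletal muscle, sorted from muscle of male C57BL/6 mice by flow cytometry. The gate took cells positive for integrin α7 and CD34 and removed cells carrying CD31, CD45, CD11b or Sca1. Geriatric arrays 1 to 4 came from mice aged 28, 28, 29 and 30 months, and young arrays 1 to 3 from mice aged 2, 2 and 3 months. The study compared the 2 ages in muscle at homeostasis, and the labels name no injury, transgene or treatment for either group. The sources used here do not say whether an array holds 1 mouse or a pool, and the p-values below can speak only of the spread among the samples measured.

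HGF is secreted as an inactive single chain bound to the matrix and is cut to its active form by serine proteases, of which HGF activator, the product of Hgfac, is the best known. Active HGF binds the receptor tyrosine kinase MET, and in muscle this ligand drives satellite cells out of quiescence, an effect described both in injured muscle and, through circulating HGF activator, in distant uninjured muscle. Urokinase (Plau) and tissue plasminogen activator (Plat) convert plasminogen to plasmin, the receptor encoded by Plaur holds urokinase at the cell surface, and the serpin encoded by Serpine2, protease nexin-1, inhibits both activators as well as thrombin. Urokinase has also been reported to cleave the HGF precursor.

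The probes are 60 bases long, and those of Met, Hgfac, Plat and Serpine2 are given whole, with the first 30 bases of the Hgf probe, because each value rests on this 1 stretch of the transcript. Coordinates are those of the array design on mm9. The capitals in the Hgfac probe mark the codons around the catalytic serine of its protease domain. The capitals in the Plat probe mark the stop codon, which has 45 bases of coding sequence before it and 12 bases after it.
Hgf, chr5:16124829-16124888, plus strand, first 30 bases: agtgtgtttgaagcatccatggatacatga
Met, chr6:17503299-17503358, plus strand: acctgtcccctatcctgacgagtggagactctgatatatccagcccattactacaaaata
Hgfac, chr5:35390807-35390866, plus strand: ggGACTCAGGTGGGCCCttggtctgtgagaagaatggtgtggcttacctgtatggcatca
Plat, chr8:23892531-23892590, plus strand: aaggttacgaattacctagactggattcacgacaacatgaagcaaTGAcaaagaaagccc
Serpine2, chr1:79793476-79796093, minus strand: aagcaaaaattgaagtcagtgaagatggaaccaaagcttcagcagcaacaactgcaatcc
The genomic coordinates of the Serpine2 probe span 2618 bases, so the 60 bases come from more than 1 exon. The Plau probe lies on chromosome 14, 21662242 to 21662301, and the Plaur probe on chromosome 7, 25260569 to 25260628.

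Geriatric arrays 1 and 2 are numbered as separate biological replicates in their titles but carry the same sample name in their descriptions. Their probe levels correlated at 0.992 and were typically 0.0867 log2 units apart (median), while correlations in the 20 remaining array pairs ran between 0.914 and 0.954 and their median gaps between 0.345 and 0.452. They were averaged and counted as 1 sample, so 3 geriatric samples were compared with 3 young samples. Between 38044 and 40998 of 55681 probes were well above background on the geriatric arrays, and 40255 to 41289 on the young arrays. All 15 satellite cell markers tested, Pax7 among them, were well above background on all 7 arrays. Levels are given as log2 of the processed signal relative to the 75th percentile of the same array, which was 1330 to 1612 intensity units. They compare 1 gene between samples and do not rank genes against each other.

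Of the 7 genes, 6 were bright enough to be tested, and 0 passed limma's test at an adjusted p of 0.05. Across the array 7 of 27395 tested features passed, which is 0.0256% (0.011% higher and 0.0146% lower in geriatric cells). Read probe by probe, 0 of the 6 passed, against 0.0145% of 41257 probes. At an unadjusted limma p under 0.05, 1 of the 6 genes was counted, Hgf, against 7.23% of all features. Samples of the 2 ages did not overlap for 1 of the 6, again Hgf, against 12.8% of all features in either direction, 7.15% with geriatric samples higher and 5.68% with them lower, so 1 in 6 lies near the background share. Hgf met the filter of 3 arrays only with the help of its 4 geriatric arrays, as 1 young array detected it, so neither count supports a difference. It is not tested when all 7 arrays must detect a gene. With 3 samples against 3, an exact permutation test of 1 gene could not give a p below 0.1.

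**Figure D1:**
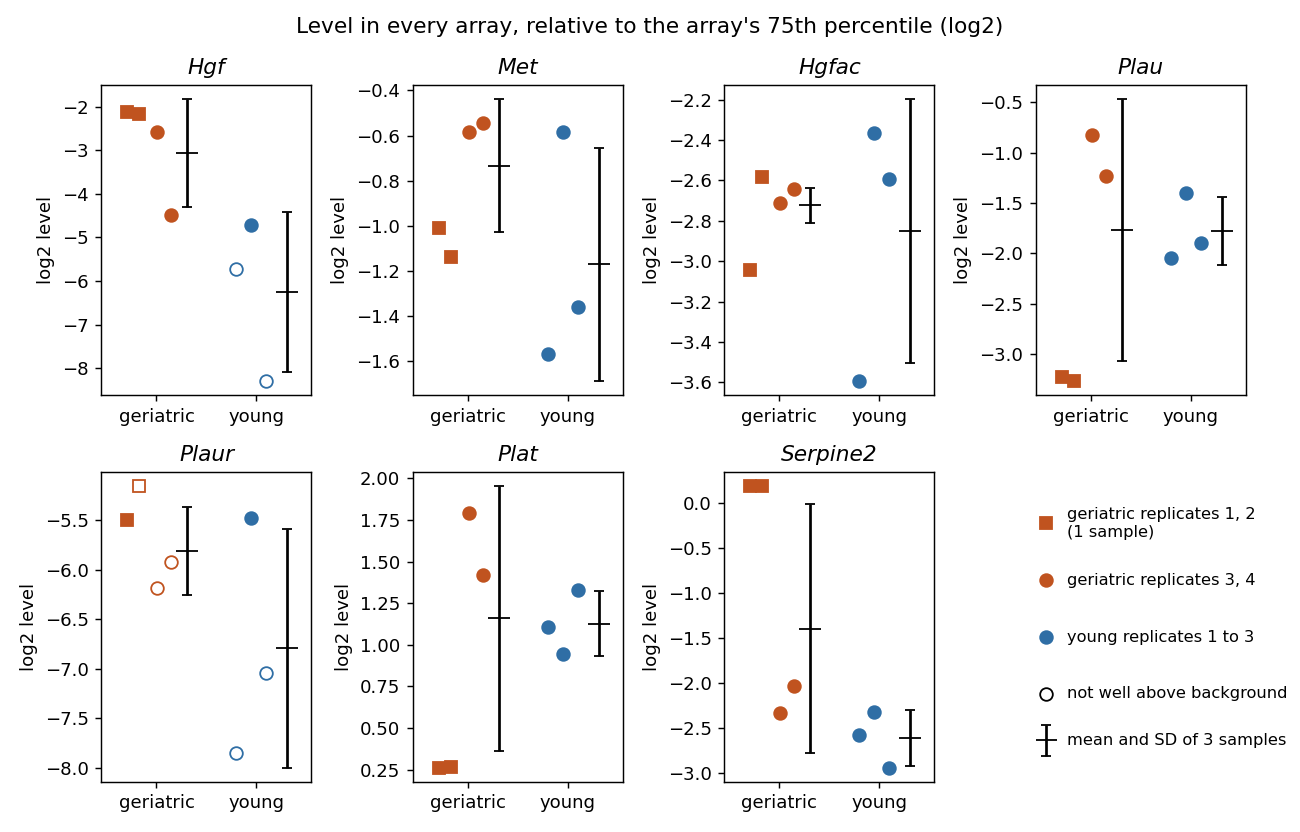
Log2 level of each gene on every array (vertical axis, relative to the array's 75th percentile; the scales differ between panels), with geriatric arrays left and young arrays right. Squares are geriatric replicates 1 and 2, which count as 1 sample, open symbols were not well above background, and bars give the mean and SD of 3 samples. Hgf is the gene whose 2 groups do not overlap among those tested, and in Plau, Plat and Serpine2 the squares stand apart from the other arrays.

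Hgf, the ligand, had the largest difference of the 7 genes. Its processed signal was 362, 317, 267 and 59.5 intensity units on geriatric arrays 1 to 4, against 27.3, 57.9 and 5.16 units on young arrays 1 to 3. On the log2 scale these are levels of -2.13, -2.16, -2.58 and -4.48 on the geriatric arrays and -5.73, -4.72 and -8.29 on the young arrays. Geriatric replicates 1 to 3 were far above every young array, while geriatric replicate 4 lay only just above young replicate 2. The probe was well above background on 4 of 4 geriatric arrays and 1 of 3 young arrays, so most of the young values sit at the edge of detection.

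The sample means of Hgf were -3.07 ± 1.24 in geriatric and -6.25 ± 1.84 in young cells (SD, n = 3 each), a log2 difference of 3.18 (SE 1.07, 95% interval 0.55 to 5.81, limma adjusted p = 0.596). This is 9.04-fold on the processed signal. Young replicate 3, whose signal had an error as large as itself (100% of the signal by the scanner software's own estimate), carried much of that size. With every array raised to at least the dimmest signal that was well above background there, a choice made after seeing the data, the fold was 5.45, and without young replicate 3 the log2 difference was 2.16. Corrected for background by normexp with an offset of 50 intensity units, Hgf differed by 1.54 log2 units. The offset is added to every signal, which makes differences between dim signals smaller. In the values the authors deposited the difference was 1.44. In the sorted bulk cells, more cells that make Hgf and more Hgf RNA per cell cannot be told apart.

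Hgf is made by stromal cells in many tissues, so markers of the stromal progenitors of muscle, called fibro-adipogenic progenitors, are given beside it. Of 14 such markers 13 were tested, 11 of them higher in geriatric cells, with a median log2 difference of 0.72. The marker at that median was Lum (SE 1.15). Of all 27395 tested features 13575 were higher, with a median of -0.0032. The summed signal of the markers, in units of the array's 75th percentile, was 61.4 to 72.1 in geriatric samples and 47.1 to 63.1 in young samples. Most of that sum came from Col3a1, Gsn and Dcn, with log2 differences of -0.13, 0.018 and 1.56. The defining marker Pdgfra failed the detection call, a signal well above background, on each of the 7 arrays. Of the 13 tested markers, 11 passed it on all 7 arrays. Lum passed it on 2 geriatric and 3 young arrays, and Ly6a, the gene of the gated antigen Sca1, on 2 and 2. The median deviation of the markers from each gene's mean over all samples was also taken. It was 0.13 in geriatric replicates 1 and 2, the sample with the highest Hgf. Geriatric replicates 3 and 4 were at 0.60 and 0.15, and young replicates 1 to 3 at -0.33, -0.23 and -0.24. The part of these cells in the Hgf values was not tested.

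Hgfac, the activating protease, did not separate the ages. Its levels were -3.05, -2.58, -2.71 and -2.64 on geriatric arrays 1 to 4, against -3.59, -2.36 and -2.59 on young arrays 1 to 3. The geriatric values lay inside the range of the young ones. The log2 difference was 0.13 (SE 0.34, 95% interval -0.72 to 0.98, limma adjusted p = 0.965). Geriatric samples spanned little (SD 0.086) and young samples more (SD 0.65). The 2 arrays of the shared geriatric sample, however, were 0.46 apart, more than the SD between geriatric samples.

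Met, the receptor, did not separate the ages. Its probe was printed in 10 spots on each array, where each of the other genes had 1 spot. Spots of 1 array had an SD of 0.0296 to 0.0898 on the log2 scale. Mean levels over the spots were -1.01, -1.14, -0.58 and -0.54 on geriatric arrays 1 to 4, against -1.57, -0.59 and -1.36 on young arrays 1 to 3. Young replicate 2 lay with the 2 highest geriatric arrays, and the other 2 young arrays were the lowest of all. The log2 difference was 0.44 (SE 0.32, 95% interval -0.34 to 1.22, limma adjusted p = 0.838). Without young replicate 2 it was 0.73, and without young replicate 1 it was 0.24.

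**Figure D2:**
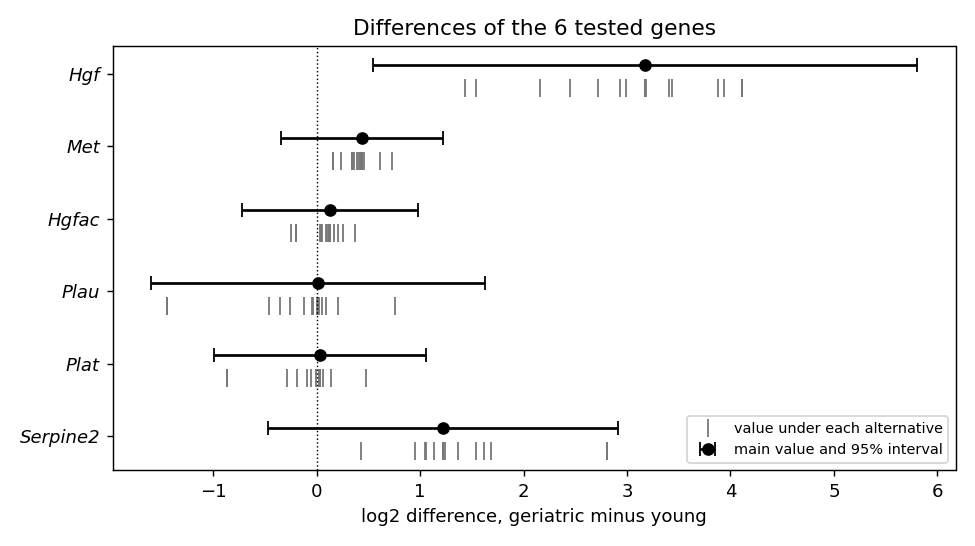
Log2 difference, geriatric minus young (horizontal axis), of the 6 tested genes, with the 95% interval of the limma fit as a bar and the value under each alternative processing or left-out sample as a tick. The interval of Hgf, 0.55 to 5.81 before adjustment for the number of features, does not include 0, and the intervals of the other 5 genes do. Hgf met the filter with the help of its 4 geriatric arrays, as 1 young array detected it, so its interval supports no difference.

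Plau, the urokinase gene, was at the same mean level at both ages, and its geriatric samples were far apart. Levels were -3.23, -3.27, -0.82 and -1.23 on geriatric arrays 1 to 4, against -2.04, -1.40 and -1.89 on young arrays 1 to 3. The shared geriatric sample was below all young samples, and geriatric replicates 3 and 4 were above all of them. The means were -1.77 ± 1.30 in geriatric and -1.78 ± 0.34 in young cells (SD, n = 3 each), a log2 difference of 0.012 (SE 0.66, 95% interval -1.60 to 1.63, limma adjusted p = 0.999). The interval is wide enough to hold a 2-fold change in either direction.

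Plat, the gene of tissue plasminogen activator, had the same arrangement on a smaller scale. Levels were 0.26, 0.27, 1.79 and 1.42 on geriatric arrays 1 to 4, against 1.11, 0.94 and 1.33 on young arrays 1 to 3. The shared geriatric sample was again the lowest of all and geriatric replicates 3 and 4 the highest. The log2 difference was 0.032 (SE 0.42, 95% interval -0.99 to 1.05, limma adjusted p = 0.993).

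Plaur, the urokinase receptor gene, was near the detection limit and was not tested. Its probe was well above background on geriatric array 1 and young array 2 and on no other array. The signal was 35.3, 40.0, 21.9 and 21.9 intensity units on geriatric arrays 1 to 4, against 6.27, 34.3 and 12.2 units on young arrays 1 to 3. The dimmest probes well above background on these arrays had 21.4 to 35.2 units, so the values have no reliable order. When dim probes were not filtered, its log2 difference was 0.98 (SE 0.63, limma adjusted p = 0.627).

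Serpine2, the inhibitor, was high in 1 geriatric sample. Levels were 0.19, 0.18, -2.34 and -2.04 on geriatric arrays 1 to 4, against -2.58, -2.33 and -2.94 on young arrays 1 to 3. In intensity units this was 1807 and 1610 on the 2 arrays of the shared geriatric sample, 315 and 323 on geriatric arrays 3 and 4, and 242, 305 and 210 on young arrays 1 to 3. Geriatric replicate 3 was level with young replicate 2, so the groups overlapped. The means were -1.40 ± 1.38 in geriatric and -2.62 ± 0.31 in young cells (SD, n = 3 each), a log2 difference of 1.22 (SE 0.69, 95% interval -0.48 to 2.91, limma adjusted p = 0.781). Without the shared geriatric sample the difference was 0.43 (adjusted p = 0.808).

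The sample of geriatric replicates 1 and 2 therefore stood at the end of the range for 4 of the 6 tested genes, highest for Hgf and Serpine2 and lowest for Plau and Plat. Over all features this sample was the highest of the 6 samples for 17.7% and the lowest for 19.3%. Its Serpine2 level was 2.22 log2 units above the next sample, a distance that 0.226% of features reached or passed upwards. For Plau it was 1.20 units below the next sample, which 1.61% of features reached or passed downwards, and for Plat 0.68 units below, which 3.37% did. For Hgf it was 0.43 units above, which 5.26% did upwards. These shares describe the sample, which was singled out after its values were seen, and are no test.

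Both arrays of that sample gave the same picture for these 4 genes. The 2 arrays lay in different rows of the slide and differed by 0.0079 for Serpine2, 0.0045 for Plat, 0.032 for Hgf and 0.036 for Plau on the log2 scale. The slide row is tied to age otherwise, since row 1 held all 3 young arrays with geriatric array 1 and row 2 the other geriatric arrays. Within row 1 the log2 difference was 2.80 for Serpine2, 4.11 for Hgf, -1.45 for Plau and -0.86 for Plat, each from geriatric array 1 alone.

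The other 2 geriatric samples showed a different arrangement of the activators and the inhibitor. Without the shared geriatric sample the log2 difference was 0.75 for Plau and 0.48 for Plat, with limma adjusted p-values of 0.674 and 0.742. The geriatric SD of Plau, Plat and Serpine2 was 1.30, 0.80 and 1.38, against a young SD of 0.34, 0.19 and 0.31. Among all tested features these geriatric SDs stood at percentiles 92.5, 83.1 and 93.4, and the young SDs at percentiles 54.6, 31.1 and 50.7. The difference in spread between ages was not tested.

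**Figure D3:**
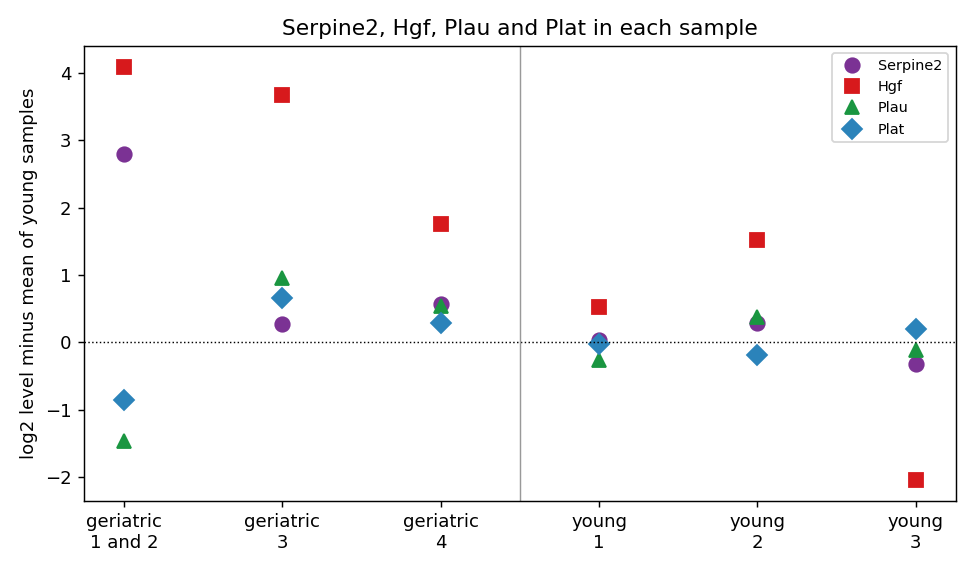
Log2 level minus the mean of the 3 young samples (vertical axis) of Serpine2, Hgf, Plau and Plat in each of the 6 samples, geriatric samples left of the line and young samples right of it. In the sample of geriatric replicates 1 and 2, Serpine2 and Hgf lie above 0 and Plau and Plat below it, while in geriatric replicates 3 and 4 all 4 genes lie above 0.

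No gene that works beside MET was called. Of a list of 25 receptor partners, adaptors and phosphatases, 24 were tested, 11 higher and 13 lower in geriatric cells. Their median log2 difference was -0.091, against -0.0032 over all tested features, and 0 of 24 passed in either direction. The core adaptors of the receptor, Gab1 (0.24, SE 0.28) and Grb2 (-0.19, SE 0.27), were named after their values were seen, and their log2 differences were smaller than their errors.

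Sos1, the exchange factor that loads Ras with GTP behind Grb2, is named first by the order of p, which rests on young values not above background. It met the filter through its geriatric arrays alone. Its levels were -4.57, -4.67, -3.82 and -4.76 on geriatric arrays 1 to 4, against -7.67, -5.89 and -6.90 on young arrays 1 to 3. Its probe was well above background on 4 of 4 geriatric arrays and 0 of 3 young ones. The log2 difference of the processed signal was 2.42 (SE 0.51, limma adjusted p = 0.334). With each young value raised to at least its array's dimmest signal well above background, the fold was 2.80. That fold is no lower bound, since a signal that fails the call can exceed the dimmest one that passes. Hgf did so on young array 1, at 27.3 against 26.2 intensity units. The log2 difference of Sos1 was 0.78 with normexp and its offset of 50 intensity units, and 0.69 in the deposited values of the authors. Both are under 1 log2 unit, which is 2-fold, and so smaller than that fold. The next were Plxnb1, a semaphorin receptor that associates with MET (-0.79, SE 0.32, adjusted p = 0.688), the phosphatase gene Ptpn1 (-0.61, SE 0.40, adjusted p = 0.810) and the adaptor gene Crkl (-0.43, SE 0.29, adjusted p = 0.815). Single samples moved both, with Ptpn1 at -1.02 without young replicate 2 and -0.40 without young replicate 3, and Crkl at -0.16 without the shared geriatric sample. Mst1r, the receptor most closely related to MET, failed the detection call on each of the 7 arrays.

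Proteases that can activate HGF, and their inhibitors, gave no call, and 5 of them were too dim to be tested. Of 12 listed genes, Hgfac included, 7 were tested, with 5 higher, 2 lower, 0 passing and a median log2 difference of 0.13. Prss8, the membrane-anchored protease prostasin, had levels of 0.67, 0.57, 0.29 and 0.27 on geriatric arrays 1 to 4, against 0.71, 0.67 and 0.78 on young arrays 1 to 3 (log2 difference -0.33, SE 0.17, limma adjusted p = 0.760). Hpn, which encodes the HGF-cleaving protease hepsin, had levels of -1.70, -1.78, -2.70 and -4.64 on the geriatric arrays, against -3.73, -4.58 and -3.64 on the young arrays, so geriatric replicate 4 was the lowest of all (0.96, SE 0.76, adjusted p = 0.853). The Hpn difference was 0.31 without the shared geriatric sample and 1.76 without geriatric replicate 4. The genes of the 2 membrane inhibitors of HGF activator, Spint1 and Spint2, differed by 0.12 (SE 0.19, adjusted p = 0.929) and 0.24 (SE 0.16, adjusted p = 0.813). Spint1 differed by 0.25 without young replicate 1 and 0.00041 without young replicate 3, and Spint2 by 0.14 without geriatric array 2. The 2 arrays of the shared geriatric sample were at -1.54 and -0.92 for Spint2, a wider gap than its difference between ages. St14, the gene of the protease matriptase, was well above background on 0 geriatric and 2 young arrays and was not tested. F11, F12, Tmprss13 and Serpina5 failed the detection call on each of the 7 arrays.

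The rest of the plasminogen system gave no call either. Of 24 listed names 23 were on the array and 13 were tested, with 4 higher, 9 lower, 0 passing and a median log2 difference of -0.086. Plg, the gene of plasminogen itself, which the liver makes, was well above background on 1 geriatric and 1 young array.

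Samples of the 2 ages did not overlap for 4 of the 13, Thbd and Vtn higher and Vldlr and Eno1 lower in geriatric cells, against 7.15% of all features higher and 5.68% lower. Of the 24 tested MET partners 3 were higher and 1 lower without overlap, and of the 7 tested in the HGF protease list 1 and 1. The 3 higher MET partners include Sos1, which met the filter through its geriatric arrays alone, so their count supports no difference. Thbd encodes thrombomodulin, the cell surface receptor of thrombin. Its levels were -1.06, -1.05, -1.50 and -1.31 on geriatric arrays 1 to 4, against -2.63, -1.85 and -2.34 on young arrays 1 to 3 (log2 difference 0.99, SE 0.26, limma adjusted p = 0.462). Vtn encodes vitronectin, a matrix protein that binds the urokinase receptor. Its levels were 2.58, 2.49, 1.78 and 1.99 on the geriatric arrays, against 1.13, 1.34 and 1.63 on the young arrays (0.74, SE 0.26, adjusted p = 0.616). Vldlr, which encodes a receptor that clears protease and serpin complexes, differed by -0.64 (SE 0.26, adjusted p = 0.688), and Eno1, an enolase that also binds plasminogen, by -0.36 (SE 0.18, adjusted p = 0.755).

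**Figure D4:**
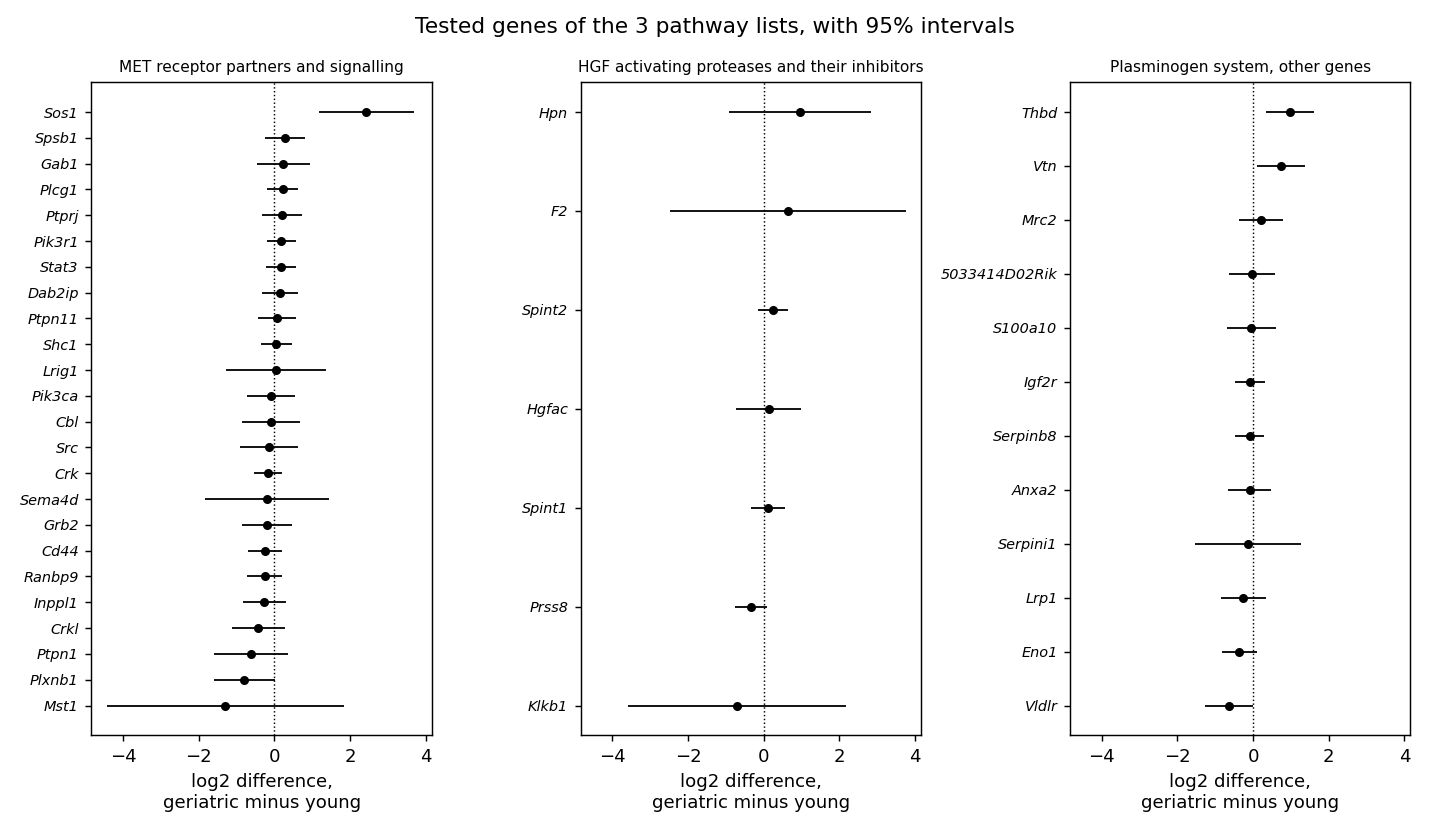
Log2 difference, geriatric minus young (horizontal axis), with 95% intervals, of the tested genes in the lists of MET partners, HGF-activating proteases with their inhibitors, and other plasminogen system genes (12 of the 13 tested are drawn). Sos1, at the top left, and Thbd and Vtn, at the top right, are the genes whose unadjusted interval does not include 0 and which are higher in geriatric cells. Sos1 met the filter through its geriatric arrays alone and was well above background on 0 young arrays, so its interval supports no difference.

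Thbd is abundant in endothelium, and the summed signal of endothelial markers was 8.84 to 12.9 in the geriatric samples, highest in the shared one, against 8.12 to 9.86 in the young samples. Most of that sum came from 1 gene, Tek, at log2 levels of 2.88 to 3.46 in geriatric and 2.70 to 3.08 in young samples. The median deviation of the markers from each gene's mean was -0.032 in the shared sample. It was -0.49 and 0.74 in geriatric replicates 3 and 4, and 0.035, 0.024 and 0.089 in young replicates 1 to 3. Of 10 endothelial markers 8 were tested, 4 higher and 4 lower, with a median log2 difference of 0.067. Detection of single markers went both ways, with Cdh5 well above background on 2 geriatric and 0 young arrays, Tie1 on 1 and 0, Pecam1, the gene of the gated antigen CD31, on 2 and 3, and Esam on 1 and 3. Their part in the Thbd values was not tested. Genes of dissociation stress and the immediate early response were well above background on all arrays, with 13 of 14 tested higher in geriatric cells and a median log2 difference of 0.14. The part of that list in the results above was not tested. Its summed signal was 646, 680 and 593 in the geriatric samples, against 614, 668 and 464 in the young samples. Of the other marker lists, the median log2 difference was 0.061 for macrophages and monocytes (9 tested), 0.23 for pericytes and smooth muscle (10 tested), 0.083 for lymphocytes (6 tested) and -0.14 for granulocytes (2 tested). It was 0.25 for Schwann cells (5 tested), 1.29 for tenocytes (3 tested) and 0.27 for mature myofibres (8 tested). Lyz2, C1qa, C1qc and Mrc1 of the macrophage list failed the detection call on each of the 7 arrays. Csf1r, Itgam, Ptprc, C1qb, Fcgr1, Cd14 and Fcer1g of the same list were well above background on all 7 arrays. Itgam and Ptprc are the genes of the gated antigens CD11b and CD45. Emr1, Cd68 and Tyrobp were well above background on some arrays only.

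For each tested gene the 2 named genes with the most similar profile over the 6 samples were sought among 14229 named genes, by Pearson correlation of log2 levels. They were Cmbl (0.993) and Id1 (0.992) for Hgf, Gja5 (0.992) and Rnf141 (0.981) for Met, and Calcoco2 (0.972) and Dynlt1c (0.971) for Hgfac. For Plau they were Heatr6 (0.993) and Tigd2 (0.990), for Plat Tob1 (0.998) and Ctrc (0.997), and for Serpine2 Lst1 (0.991) and DXBay18 (0.990). With 6 samples that share their arrays' scaling, between 10 and 62 named genes passed a correlation of 0.95 with each gene, and the names given stand out from these by small differences in r. The profile of Hgf holds young values at the edge of detection, so its 2 names rest partly on unreliable levels.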

How the data were processed

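RNA of 7 samples was hybridised to Agilent 1-colour arrays after whole-transcriptome amplification, per the labels. The deposited intensity of each spot comes from Agilent Feature Extraction, version 10.7.3.1, on a design for mm9, per the file headers. It had its background subtracted, was detrended within each array and holds surrogate values for spots near background, so low levels such as those of Hgf are uncertain. The authors' value table held log2 values with a median of 8.02 in every column; they correlated with log2 mean intensity of the same array at 0.9996 to 0.9998, are not centred by gene, and their background correction stays unknown.

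Main values were log2 processed signal scaled to the 75th percentile of each array, with control and outlier spots left out and spots of 1 probe averaged. The filter, a signal well above background on 3 or more of the 7 arrays, kept 41257 of 55681 probes, and each gene was read by its brightest such probe. Differences, geriatric minus young, were tested with limma 3.58.1 in R 4.3.3 (2-sided, Benjamini-Hochberg over 27395 features, checked on simulated data). Figures were drawn with matplotlib 3.10.9. The 7 genes and the gene lists were chosen with earlier results of these data known. From each list the 4 genes of smallest unadjusted p are named, and others only where the text says so. A gene of the plasminogen list is counted but not reported here. All arrays shared 1 slide. The number of arrays limits the precision.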

Additional observations from a re-analysis of the deposited data

How the results depend on the processing

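The count of 0 of the 6 tested genes past the threshold held under every alternative run by gene, and by probe in each run that fitted probes. It was 0 of 5 genes where all 7 arrays had to be well above background, which Hgf was not. With no filter on dim probes it was 0 of 7, with Plaur. For Hgf the limma adjusted p was 0.272 to 0.834 and the log2 difference 1.44 to 4.11, positive throughout. The difference stayed positive for Met (0.16 to 0.73) and Serpine2 (0.43 to 2.80). Leaving out each sample in turn gave 2.16 to 3.94 for Hgf, -0.24 to 0.37 for Hgfac, -0.46 to 0.75 for Plau and -0.28 to 0.48 for Plat. Plat was at -0.0028 with normexp, and Plau at -0.033 with quantile normalization. With 4 separate geriatric samples Plau was at -0.36 and Plat at -0.19. With the slide row as a block and within row 1, both resting on geriatric array 1, Hgfac was at -0.20, Plau at -1.45, Plat at -0.86 and Spint2 at -0.016. The cause of these changes of sign, all of values under their error in the main setting except for Spint2, was not tested.

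The median of the MET partner list was 0.026 and that of the plasminogen list 0.034 without young replicate 2, and the plasminogen list was at -0.24 in the 2 slide row settings.

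Across the array 7 features passed, against 18 with normexp, 4 in the authors' values, 2 with probes well above background on all 7 arrays, 64 with 4 separate geriatric samples, 0 with the slide row as a block (1633 at an unadjusted limma p under 0.05) and 3 within row 1. Leaving out a sample or array gave 0 to 8: 0 without young 1, young 2 or geriatric 4, 2 without young 3 or geriatric 3 and 1 without the averaged sample, with 1620 to 2142 at an unadjusted p under 0.05. With no filter on dim probes that count was 3107 and with 4 separate geriatric samples 3047. Same-numbered samples of the descriptions correlated at -0.043, 0.030 and 0.045 in their deviations from group means. Samples of different numbers correlated at -0.11 to 0.078, so the values showed no sign of pairing by number. With so few samples this cannot settle whether same-numbered samples were handled together. With the replicate block 0 features and 0 of the 6 genes passed (2073 features at an unadjusted p under 0.05).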
